A study of Mus musculus with 3 samples.

Results

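Cycling mesenchymal cells of the mouse tooth were taken from single-cell RNA-sequencing libraries of Pthrp-mCherry+ molar cells at P15, P25 and 8W. A cell was a member when it held at least 500 genes, at most 20% mitochondrial UMIs (unique molecular identifiers, 1 for each captured transcript), at least 2 UMIs each of the proliferation genes Mki67 and Top2a, and no UMI of the immune gene Ptprc, the epithelial gene Epcam or the endothelial genes Pecam1 and Cdh5. Of 27089 deposited cells, 24328 passed the filter on genes and mitochondrial UMIs, 20432 of these lacked the 4 excluded genes and are called mesenchymal, and 579 were cycling. They numbered 334 at P15, 212 at P25 and 33 at 8W. The cells they were set against were 17225 mesenchymal cells with no UMI of Mki67 or Top2a, called non-cycling here, 7109 at P15, 6022 at P25 and 4094 at 8W. The remaining mesenchymal cells, 1441 at P15, 916 at P25 and 271 at 8W, lay between the classes and entered neither.

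All 3 groups were mice with the Pthrp-mCherry knock-in allele, which expresses a red fluorescent protein where Pthlh, the gene of parathyroid hormone-related protein (PTHrP), is active. By the labels they differed in age alone: P15 and P25 count days after birth and 8W weeks. Mandibular molars were pooled and dissociated with enzymes, and mCherry+ cells were sorted, so the libraries hold only cells that passed the gate on the reporter. With 1 library per time point, age, the pool of mice and the library cannot be told apart, and no test was made between ages. The deposited libraries held 188157997 UMIs in 12926 cells at P15, 169712592 in 8971 cells at P25 and 46234378 in 5192 cells at 8W.

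A dividing cell copies its DNA in S phase, prepares for division in G2 and separates its chromosomes in mitosis (M). E2F factors switch on replication genes such as those of the Mcm helicase, and later genes such as Cdk1, Top2a and the mitotic kinesins follow, many of them through DREAM and MuvB complexes that bind a promoter element called CHR, with NF-Y at nearby CCAAT boxes. In the growing root, mesenchymal precursors around the apex give rise to cementoblasts, which lay down cementum, to periodontal ligament fibroblasts and to bone cells of the socket. PTHrP marks cementoblasts and their precursors. Matrix and mineral genes such as Ibsp and Bglap mark the mature cells.

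The rule fixed the level of Mki67, a nuclear protein of dividing cells, and of Top2a, which untangles DNA. Members held a median of 9 Mki67 and 13 Top2a UMIs at P15, 12 and 27 at P25, and 7 and 19 at 8W. At the edge of the rule, 72, 20 and 5 members of P15, P25 and 8W had 2 UMIs of the scarcer gene, and 154, 53 and 6 cells just outside had 1. The median UMI total of members was 22796.5 at P15, 29252 at P25 and 18123 at 8W, against 14774, 15459 and 9136 in non-cycling cells. Members were thus the deeper cells in each library, and a rule that needs 2 UMIs also finds more cells where depth is higher.

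Cells of other types passed the rule. A cell was counted as such with at least 2 UMIs of at least 4 genes of an epithelial, immune, endothelial or glial list, or of at least 2 of 5 erythroid genes. These were 50 members at P15 (14.97%, exact binomial 95% interval 11.3 to 19.3), 31 at P25 (14.6%, 10.2 to 20.1) and 3 at 8W (9.09%, 1.92 to 24.3), against 8.17%, 2.24% and 0.537% of non-cycling cells. Erythroid cells, which carry haemoglobin, made up 31 members at P15, 14 at P25 and 1 at 8W. Epithelial cells numbered 11, 16 and 2, immune cells 6, 1 and 0, glial cells 4, 0 and 0, and endothelial cells 0 in each library. How many of them were doublets of a mesenchymal cell with a cell of another type was not tested. Of the erythroid cells, 27 of 31 at P15 and 13 of 14 at P25 also carried at least 3 of 8 mesenchymal genes.

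The 8 genes of the erythroid list summed to 15793 CPM (counts per 1000000 UMIs of the class) in members and 1958 CPM in non-cycling cells at P15, to 25962 and 427 CPM at P25 and to 1752 and 20.6 CPM at 8W, with Hbb-bs the most abundant in each. The 9 epithelial genes, led by Krt14, summed to 468 against 756 CPM at P15, 1209 against 581 CPM at P25 and 1511 against 130 CPM at 8W. The 12 immune genes summed to 528 against 215 CPM at P15, where S100a8 led, to 23.3 against 29.95 CPM at P25 and to 9.44 against 32.1 CPM at 8W. At least 3 of 8 mesenchymal genes were carried by 330 of 334, 207 of 212 and 32 of 33 members in the P15, P25 and 8W libraries. The same held for 11 of 11 members and 369 of 404 non-cycling cells counted as epithelial at P15, so this measure does not tell cell types apart. Those genes, led by Col1a1 with all 8 detected in every library, summed to 22684 against 36960 CPM at P15, 52265 against 59856 CPM at P25 and 34158 against 38526 CPM at 8W. The comparison of classes was also made without the cells of other types, which left 284, 181 and 30 members. Without them the erythroid sums in members were 181, 28.1 and 11.6 CPM.

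Promoters of G2/M genes held the CHR letters more often than those of lineage genes did. The windows below, taken from RefSeq promoters of GRCm38.p6 (250 bases before to 50 after each start site), show the CHR letters TTTGAA in 5 genes of the G2/M list and E2F-type letters in 4 genes of the S list, with the letters searched in capitals and each sequence written 5′ to 3′ on the strand of its gene. They are shown as examples of the S and G2/M lists described below. The rule itself used Mki67 and Top2a and none of these genes.
Cenpf, chr1:189688067-189688096, minus strand: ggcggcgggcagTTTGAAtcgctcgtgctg
Prc1, chr7:80294434-80294463, plus strand: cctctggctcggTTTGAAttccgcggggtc
Cdk1, chr10:69352910-69352939, minus strand: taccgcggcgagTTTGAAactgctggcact
Cenpa, chr5:30666890-30666919, plus strand: ggcgggtgatttTTTGAActgctggcgacc
Cks1b, chr3:89418291-89418320, minus strand: gcgggcggtgtgTTTGAAagcgaggccaaa
Mcm6, chr1:128359734-128359763, minus strand: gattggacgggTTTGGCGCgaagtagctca
Mcm3, chr1:20820263-20820285, minus strand: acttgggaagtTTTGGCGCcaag
Hells, chr19:38930917-38930946, plus strand: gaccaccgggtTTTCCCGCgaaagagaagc
Pold3, chr7:100121467-100121496, minus strand: gagcgaagctgTTTCCCGCcggcgggagct

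The first 5 windows show CHR letters next to the start of genes for kinetochore, spindle and Cdk proteins (Cenpf and Cenpa, Prc1, Cdk1 and Cks1b). Mcm6 and Mcm3 belong to the replicative helicase, Hells remodels chromatin and Pold3 is a subunit of DNA polymerase delta. TTTGAA, searched on both strands, stood in 68.1% of 47 G2/M promoters and 55% of 20 promoters of a condensin and chromatin list, in 15.6% of 32 S promoters, in 14% of 107 lineage promoters and in 20.2% of all 27025 promoters. The longer letters TTTGGCGC stood in 18.8% of S promoters, in 15% of condensin and chromatin promoters, in 2.13% of G2/M promoters, in 0% of lineage promoters and in 0.585% of all. TTTCCCGC stood in 15.6% of S promoters, 10% of condensin and chromatin promoters, 0% of G2/M promoters, 0.935% of lineage promoters and 1.24% of all, and CCAAT in 74.5% of G2/M, 70% of condensin and chromatin, 62.5% of S, 44.9% of lineage and 41.1% of all promoters. A match of letters is a description of the window and no evidence of binding.

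Cycling cells made up 3.76% of mesenchymal cells at P15 (334 of 8884, exact Clopper-Pearson 95% interval 3.37 to 4.18), 2.97% at P25 (212 of 7150, 2.58 to 3.38) and 0.750% at 8W (33 of 4398, 0.517 to 1.05). The 8W share lay below both earlier shares, with no overlap of the intervals, which cover counting error only. Without cells of other types the shares were 3.47%, 2.60% and 0.687%. With every cell thinned to 3000 UMIs, the rule found 1.20% at P15, 0.947% at P25 and 0.349% at 8W, and at 5000 UMIs 1.76%, 1.58% and 0.606%. The P15 and P25 intervals overlapped over all members and at both thinned depths but not without cells of other types, and 8W was lowest in all 4 settings. Whether the age, the sort or the pool of mice set this order was not tested.

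**Figure D1:**
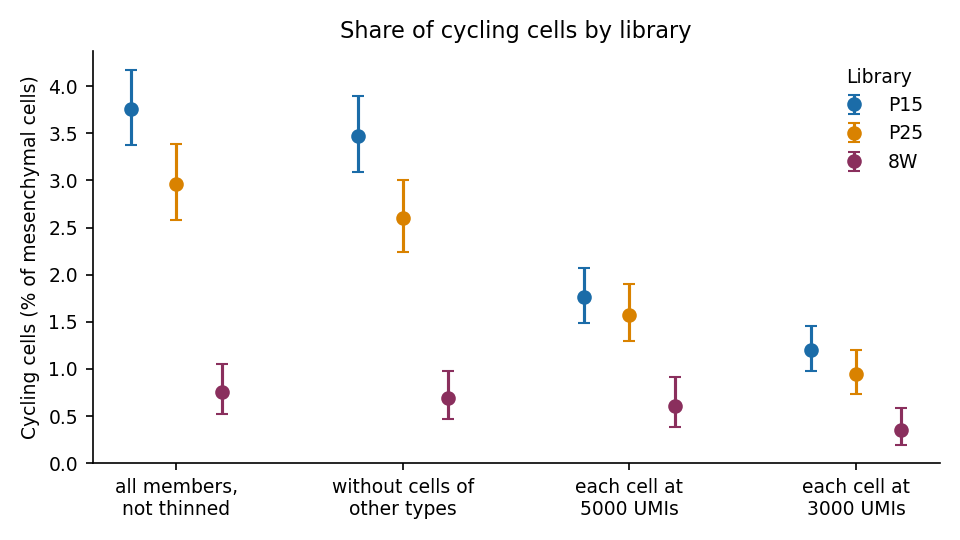
Share of mesenchymal cells that were cycling (percent, vertical axis) in each library under 4 settings, with exact 95% binomial intervals as bars. The P15, P25 and 8W shares are 3.76%, 2.97% and 0.750% without thinning or removal of cells of other types, and the 8W share is lowest in each setting.

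The cell cycle genes describe what the rule chose and carry no test here. Stmn1, a tubulin-binding protein of dividing cells, had 1572 (members) and 97.6 CPM (non-cycling) in the P15 library, 1523 and 30.3 in P25, and 2120 and 27.0 in 8W. Hmgb2, a chromatin protein, had 2597 and 114 CPM, 2024 and 99.1 CPM, and 2330 and 106 CPM in the same order. Smc2, a core subunit of condensin, had 386 and 19.4 CPM, 408 and 15.5 CPM, and 551 and 17.4 CPM. For all 3 markers the classes lay far apart in each library. The median log2 fold change was 3.67 over 42 S genes, 7.12 over 57 G2/M genes and 2.73 over 26 condensin and chromatin genes.

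Members differed in the balance of S and G2/M genes. Per 10000 UMIs, a member held a median of 47.7 S and 73.0 G2/M UMIs at P15, 40.4 and 102 at P25, and 66.3 and 105 at 8W, against 4.44 and 4.17, 3.94 and 3.49, and 4.79 and 3.75 in non-cycling cells. S genes outweighed G2/M genes in 125 members at P15 (37.4%), 48 at P25 (22.6%) and 14 at 8W (42.4%). At P15 the quartiles over members were 12.5 and 72.2 S UMIs and 39.2 and 135 G2/M UMIs per 10000, and cells low in S genes reached the highest G2/M values. Mki67 and Top2a are known to accumulate late in the cycle.

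**Figure D2:**
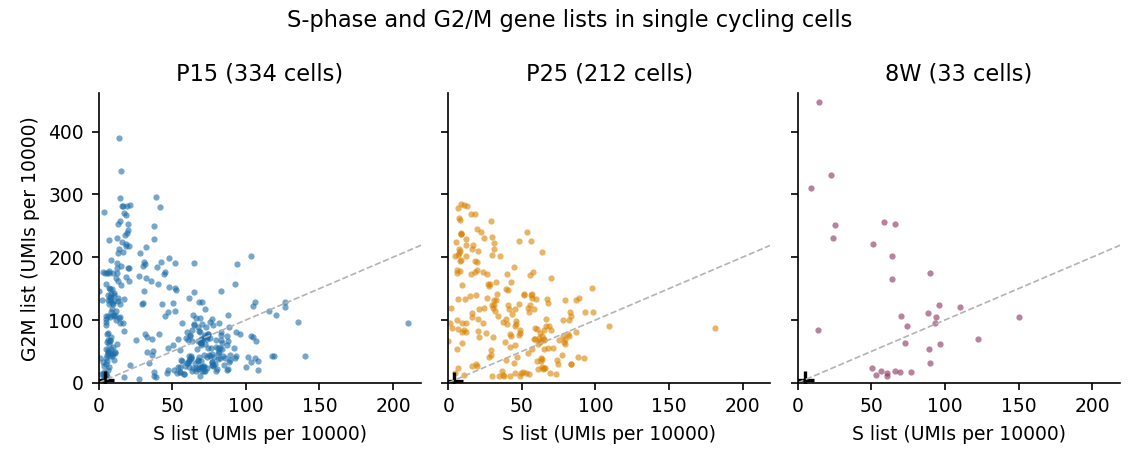
S-list against G2M-list UMIs per 10000 UMIs of each cell (axes), 1 point per cycling cell and 1 panel per library, with the median of non-cycling cells as a black cross and equal shares as a dashed line. The 125 P15 members below the line carry more S than G2M transcripts, and most members of each library lie above it.

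Regulators of the cycle did not all go with Mki67. Cdk2, the kinase of the start of S phase, had 35.8 against 10.2 CPM at P15, 44.6 against 9.91 CPM at P25 and 58.2 against 10.2 CPM at 8W. Of the D cyclins, which drive entry into the cycle, Ccnd1 had 208 against 195, 111 against 126 and 184 against 152 CPM (log2 fold change 0.03 ± 0.10, SE). Ccnd2 had 193 against 408 CPM at P15, 84.3 against 304 CPM at P25 and 67.7 against 327 CPM at 8W (log2 fold change −1.67 ± 0.26), with members below non-cycling cells in each library. The CDK inhibitor Cdkn2c had 127 against 18.5, 229 against 17.8 and 253 against 18.5 CPM, whereas Cdkn1b, which holds cells out of the cycle, had 106 against 97.9, 75.2 against 69.2 and 104 against 94.6 CPM. Gas1, a growth-arrest gene, had 208 against 348, 311 against 509 and 349 against 846 CPM, and the antiproliferative gene Btg2 had 327 against 587, 458 against 694 and 354 against 604 CPM.

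To ask which lineage genes the members carried, UMIs were summed per library over cycling and over non-cycling cells, and the 6 sums were compared with edgeR's quasi-likelihood test with the library as a block. In what follows ± gives the SE of a log2 fold change. It was derived from the test, as the size of the change over the square root of the F statistic. Levels stand as members and then non-cycling cells, library by library from P15 to 8W. P-values are Benjamini-Hochberg adjusted over 13261 genes and rest on 3 libraries of different age. Past an adjusted p of 0.05 and a change of more than 1 on the log2 scale in either direction, 959 genes were higher in members (7.23%) and 450 lower (3.39%). By adjusted p alone, the call used for lineage genes, 28.6% of all genes passed, 15.5% higher and 13.1% lower, with a median log2 fold change of −0.07. Cell cycle genes stayed in the fit and in these counts, though the rule selects for them. All 42 S genes, all 57 G2/M genes and 25 of 26 condensin and chromatin genes were higher, which raises the share of all genes that was higher. Of 155 genes in 16 lineage lists, 151 were tested: 3 were higher, 41 lower and 107 did not pass, with a median of −0.43. Without cells of other types 6 were higher and 39 lower, with a median of −0.37, where 31.2% of all genes passed, 16.6% higher and 14.6% lower, and by both thresholds 7.07% were higher and 4.3% lower. The number lower moved to 75 in sums of cells thinned to 3000 UMIs (where 2523 of 11945 genes passed), to 64 without possible doublets (3875 of 13149) and to 8 with no block (1454 of 13261), where 0 were higher. Lineage genes that passed were nearly all lower in cycling cells. The counts of single lists below stand beside the 15.5% higher and 13.1% lower of all genes, and no test was made between lists. A fit with 1 library left out rests on 4 sums with 1 residual degree of freedom, and its p-values draw on the spread of other genes. In bulk sums such as these, fewer cells that carry a gene and less RNA per cell cannot be told apart.

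The 3 genes higher in members all belonged to the periapical list of 19 genes, in which 3 others were lower and the median was −0.59. At 15.8% of the list in each direction, both counts were near the shares of all genes tested (15.5% higher and 13.1% lower). The list joins several periapical clusters of the study. All 3 higher genes are markers of its Nts, Hand2 and Alx1 cluster, where Alx1, Tnn, Lrrc17 and Cald1 did not pass. The lower genes, Spon1, Cygb and Fbn1, are markers of the other periapical clusters. No test was made between clusters. Most genes of this list, and of those of cementoblasts and precursors, are ones the study named from these samples together with its P6 library. The counts of these lists are therefore not independent evidence. Nts, the neuropeptide neurotensin, had 107 (members) and 65.8 CPM (non-cycling) in the P15 library, 385 and 258 in P25, and 801 and 371 in 8W. It was higher in members of all 3 libraries (log2 fold change 0.77 ± 0.10, adjusted p = 0.00159 in edgeR), and the difference held with each library left out. Csrp2, a LIM protein of the actin cytoskeleton, had 513 and 373, 520 and 403, and 831 and 441 CPM (0.55 ± 0.11, adjusted p = 0.00771). Hand2, a transcription factor of the jaw mesenchyme, had 22.2 and 12.9, 50.7 and 41.6, and 187 and 80.7 CPM (0.71 ± 0.17, adjusted p = 0.0197). At P15, Hand2 was seen in 17 of 334 members, 5 of which held 55.6% of its UMIs, and its call was lost without the 8W library (adjusted p = 0.0625) and in sums of cells thinned to 3000 UMIs (0.38 ± 0.23, adjusted p = 0.266). Nts lies at chr10:102481756-102490486 and Hand2 at chr8:57320983-57324633 of GRCm38.

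Other periapical genes divided. Alx1, a homeobox factor of the face, had 7.73 and 6.03 CPM in P15, 33.4 and 27.7 in P25, and 83.4 and 44.8 in 8W (0.45 ± 0.14, adjusted p = 0.0523 in edgeR, 0.0424 without P15 and 0.0196 without cells of other types). Cygb, a globin of fibroblasts, was lower with 16.1 and 46.2, 9.21 and 25.8, and 6.30 and 52.4 CPM (−1.65 ± 0.20, adjusted p = 0.00122). Fbn1, which forms microfibrils, was lower with 101 and 149, 100 and 172, and 115 and 249 CPM (−0.81 ± 0.13, adjusted p = 0.00323), as was Spon1 (−0.53 ± 0.11, adjusted p = 0.0118).

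Cementoblast genes were lower or did not pass. Of 9 genes of Cementoblast α, 4 were lower and 0 higher, with a median of −0.92. Ank, which exports pyrophosphate and limits mineral growth, had 51.8 (members) and 141 CPM (non-cycling) in the P15 library, 70.8 and 157 in P25, and 109 and 184 in 8W (−1.18 ± 0.12, adjusted p = 0.000339 in edgeR). Pthlh, the PTHrP gene itself, had 81.3 and 181, 116 and 228, and 170 and 239 CPM (−0.92 ± 0.12, adjusted p = 0.00107). The counting intervals of the classes were apart in each library for both genes, and both calls held with each library left out. The water channel Aqp1 was lower (−0.80 ± 0.11, adjusted p = 0.00137). Timp3, a metalloproteinase inhibitor, passed (−1.14 ± 0.26, adjusted p = 0.0422 in edgeR), but its call was lost in several other fits. Its adjusted p was 0.107 without P25, 0.064 without cells of other types and 0.212 with non-cycling cells matched in depth (−0.88 ± 0.39). The mCherry reporter transcript, for which the cells were sorted, had 202 and 341, 274 and 394, and 452 and 563 CPM in members and non-cycling cells of the 3 libraries (mCherry_trans in the count tables, −0.56 ± 0.09, adjusted p = 0.0038). The reporter is knocked into the Pthlh locus.

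Ibsp, a sialoprotein of mineralising matrix, had 682 (members) and 4105 CPM (non-cycling) in the P15 library, 2015 and 6039 in P25, and 8105 and 8127 in 8W. The classes were far apart at P15 and P25 and level at 8W. Ibsp did not pass over the 3 libraries (−1.43 ± 0.65, adjusted p = 0.237 in edgeR) and passed without 8W (−2.09, adjusted p = 0.00374) and in DESeq2 (adjusted p = 0.00411). Its neighbour in the same gene cluster, Spp1 or osteopontin, had 107 and 611, 244 and 1285, and 650 and 1486 CPM (−2.07 ± 0.30, adjusted p = 0.0135), and without P15 its adjusted p was 0.149.

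Of 7 genes of Cementoblast β, which include osteocyte and late osteoblast genes, 1 was lower (14.3%, near the 13.1% of all genes tested) and 0 higher. The median was −1.19, and without cells of other types 0 were lower. Smpd3, a sphingomyelinase needed for mineral, was the lower one (−0.46 ± 0.13, adjusted p = 0.0375 in edgeR), and its adjusted p was 0.21 without P25. Its level in members was below that of non-cycling cells in 2 libraries and above it in 1. Dmp1, a phosphoprotein of osteocytes, had 9.73 and 56.1, 53.7 and 107, and 45.6 and 83.9 CPM, members below non-cycling cells in each library (−1.52 ± 0.37, adjusted p = 0.0523 in edgeR and 0.000123 in DESeq2), and it passed without P15 (−0.996). Bglap, or osteocalcin, had 1320 and 1149 CPM in P15, 1074 and 3218 in P25, and 1086 and 4621 in 8W (−1.19 ± 0.65, adjusted p = 0.299). At P15, 1 member held 9915 of the 10586 Bglap UMIs (93.7%), and Bglap passed without the P15 library (−1.88) and in sums of cells thinned to 3000 UMIs (−1.56). Bglap has near-identical copies, among which the authors' counting may divide reads.

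Over all members, precursor genes were lower or did not pass. Of 9 genes of precursor 0, 1 was lower (11.1%, median −0.74). Of 7 genes of precursor 1, 0 passed in either direction (median −0.10). Of 8 genes of precursor 3, 3 were lower (37.5%, median −0.42), against 13.1% of all genes tested. Without cells of other types these counts were 2 lower, 1 higher and 2 lower. Ogn, a small leucine-rich proteoglycan, had 259 and 642, 190 and 552, and 118 and 704 CPM, lower in members of each library (−1.76 ± 0.29, adjusted p = 0.0199 in edgeR; 0.204 without P25). Pcp4, a calmodulin-binding peptide and the leading gene of precursor 1, had 648 and 603 CPM in P15, 227 and 311 in P25, and 222 and 452 in 8W (−0.45 ± 0.25, adjusted p = 0.258). Ptn, a growth factor that binds heparin, had 5152 and 3911, 3366 and 3407, and 7813 and 4823 CPM (0.33 ± 0.13, adjusted p = 0.0897). It passed without P15 (0.00653), without P25 (0.0209) and without cells of other types (0.0329). Thbs4, a thrombospondin of tendon and ligament, had 448 and 1080, 409 and 673, and 825 and 1444 CPM (−0.96 ± 0.11, adjusted p = 0.000708).

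**Figure D3:**
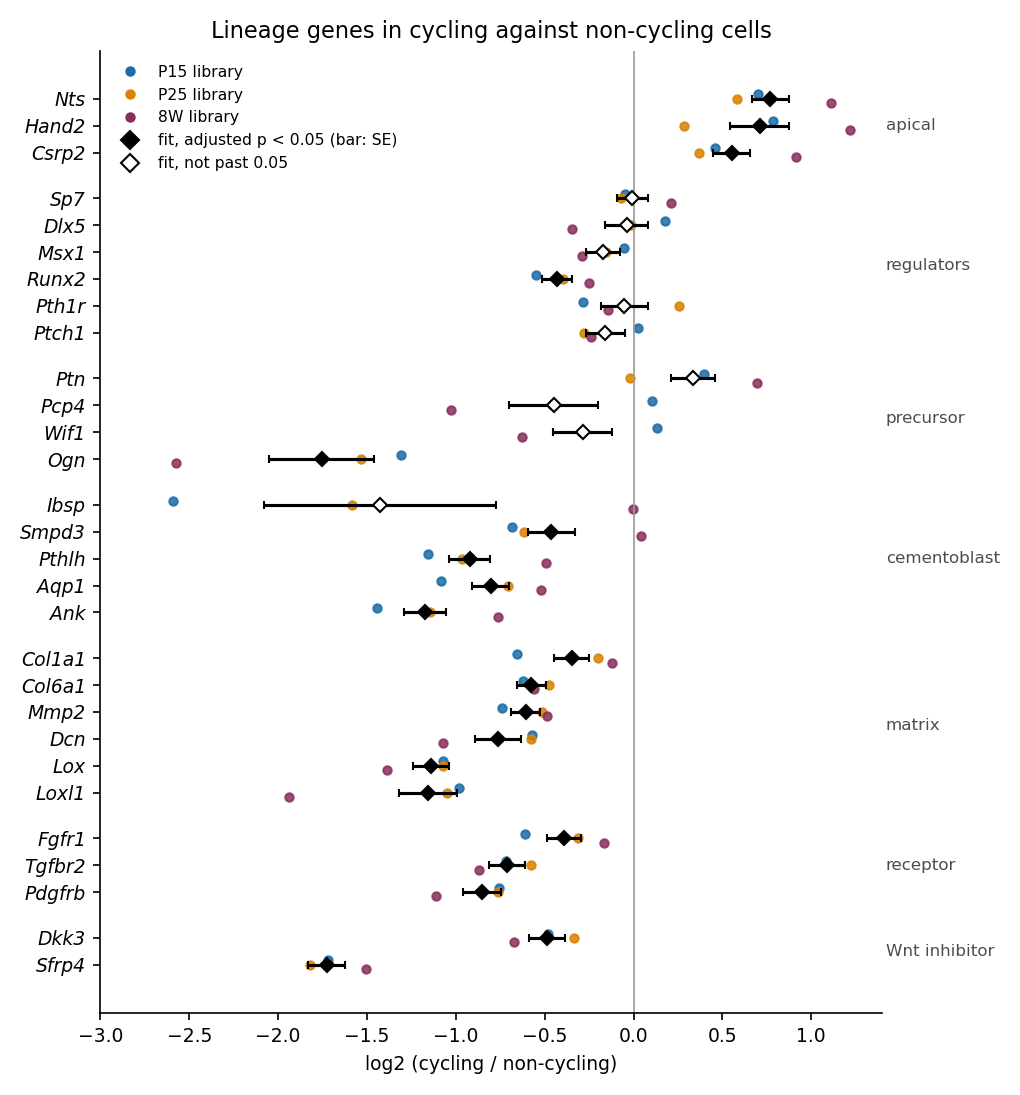
Log2 ratio of cycling to non-cycling cells (horizontal axis) for lineage genes grouped by role, with 1 coloured point per library, the edgeR log2 fold change as a diamond and its SE as a bar. Filled diamonds passed an adjusted p of 0.05: the 3 periapical genes at the top lie right of 0, and the filled matrix, receptor and cementoblast genes lie left of it.

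Matrix genes that passed were lower in members. Of 19 genes for collagens, elastic fibres and matrix enzymes, 11 were lower (57.9%, against 13.1% of all genes tested) and 0 higher. The median was −0.53, and 10 were lower without cells of other types. Lox, which cross-links collagen and elastin, had 55.6 and 117, 95.5 and 201, and 37.8 and 99.0 CPM (−1.14 ± 0.10, adjusted p = 0.000203 in edgeR). Its relative Loxl1 had 27.2 and 53.8, 35.9 and 74.2, and 20.5 and 78.4 CPM (−1.16 ± 0.16, adjusted p = 0.00233). Both genes were lower in members of each library. Col14a1, a collagen that decorates fibrils, had 6.36 and 42.5, 1.09 and 13.3, and 0 and 61.7 CPM (adjusted p = 0.00198), where 0 UMIs at 8W have an exact Poisson 95% upper bound of 5.81 CPM. Col6a1, a subunit of microfibrillar collagen, had 287 and 442, 607 and 845, and 463 and 682 CPM (−0.58 ± 0.08, adjusted p = 0.00181). Mmp2, a gelatinase, had 279 and 466, 648 and 928, and 562 and 787 CPM (−0.61 ± 0.08, adjusted p = 0.00156).

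Of the fibrillar collagens, Col1a1 had 9644 and 15185 CPM in P15, 24555 and 28168 in P25, and 15090 and 16390 in 8W (−0.35 ± 0.10, adjusted p = 0.0359 in edgeR). That call was lost without P25 (0.0699), without 8W (0.121) and without cells of other types (0.0691). Col3a1 had 4286 and 7737, 7957 and 9686, and 4568 and 7993 CPM (−0.67 ± 0.12, adjusted p = 0.00779, and 0.0522 without 8W). The gap in Col1a1 between the classes was widest at P15 and narrowest at 8W.

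Of 9 ligament and tendon genes, 4 were lower and 0 higher, and 2 were lower without cells of other types. Dcn, or decorin, had 700 and 1039, 1319 and 1971, and 1508 and 3173 CPM (−0.76 ± 0.13, adjusted p = 0.00546 in edgeR), and Fmod, or fibromodulin, had 8.98 and 16.0, 19.2 and 50.1, and 1.57 and 24.8 CPM (−1.27 ± 0.27, adjusted p = 0.0167). Postn, or periostin, had 496 and 1175, 2222 and 2539, and 1728 and 2125 CPM and did not pass (adjusted p = 0.113). Mkx, a tendon transcription factor, had 23.9 and 24.0, 34.5 and 33.3, and 44.1 and 38.8 CPM (0.04 ± 0.11). Among 7 mural genes 3 were lower, among them Tagln, an actin-binding protein, with 98.5 and 146, 51.7 and 104, and 83.4 and 134 CPM (−0.77 ± 0.11, adjusted p = 0.00232). Of 6 genes of odontoblasts and papilla 4 were tested, and only Smoc2, a matricellular protein, was lower (−1.14 ± 0.23, adjusted p = 0.0175); Dspp and Mmp20 were under the count filter.

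The list of receptors for growth factors also holds the ligand Igf2. Of its 12 genes tested, 4 were lower (33.3%, against 13.1% of all genes tested) and 0 higher, with a median of −0.25. Pdgfrb, a receptor for platelet-derived growth factor, had 64.9 and 110, 67.4 and 114, and 64.5 and 140 CPM (−0.85 ± 0.11, adjusted p = 0.00115 in edgeR). Tgfbr2, the type II receptor for TGF-β, had 40.9 and 67.3, 70.2 and 105, and 72.4 and 132 CPM (−0.71 ± 0.10, adjusted p = 0.00192). Fgfr1 also passed (−0.39 ± 0.09, adjusted p = 0.0183), as did the ligand Igf2 (−0.67 ± 0.14, adjusted p = 0.0109). Fgfr1 had an adjusted p of 0.0769 without P15 and 0.107 without P25. Pdgfra, which marks fibroblasts, had 149 and 167, 127 and 144, and 142 and 174 CPM and did not pass (−0.23 ± 0.09, adjusted p = 0.0915).

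Of 10 transcription factors of the skeletal lineage tested, 1 was lower (10%, against 13.1% of all genes tested) and 0 higher, with a median of −0.06. It was Runx2, the master regulator of osteoblasts, with 196 and 287, 165 and 218, and 244 and 291 CPM (−0.43 ± 0.08, adjusted p = 0.00764 in edgeR, and 0.0899 without P25). Sox9, a factor of skeletal progenitors and cartilage, had 93.0 and 106, 37.6 and 74.4, and 17.3 and 119 CPM, with members below non-cycling cells in each library, and did not pass (−0.91 ± 0.47, adjusted p = 0.26). Sp7, which acts after Runx2, had 80.1 and 82.7, 104 and 110, and 118 and 102 CPM (−0.01 ± 0.09). Dlx5, a homeobox factor of the jaw, had 143 and 127, 80.2 and 81.2, and 91.3 and 116 CPM (−0.04 ± 0.12). Twist1, a mesenchymal factor, had 431 and 518, 494 and 557, and 738 and 578 CPM (−0.06 ± 0.11). Members therefore carried Sp7, Dlx5 and Twist1 at levels near those of non-cycling cells. A missed threshold does not show that they are equal.

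Wnt signalling acts in the formation of cementum. Axin2, Lef1 and Nkd1 are among its target genes, and secreted inhibitors hold it back. Of 14 genes that respond to Wnt, 2 were lower (14.3%, near the 13.1% of all genes tested) and 0 higher, with a median of −0.16. Axin2, a feedback inhibitor, had 38.0 and 43.3, 24.2 and 29.7, and 33.1 and 31.8 CPM (−0.20 ± 0.11), and the effector Lef1 had 92.0 and 83.7, 37.0 and 44.4, and 55.1 and 50.6 CPM (−0.03 ± 0.12). Nkd2, a feedback regulator, was lower (−0.55 ± 0.11, adjusted p = 0.0103 in edgeR, and 0.054 or 0.0611 without P15 or P25). The R-spondin receptor Lgr5 was lower at few UMIs (0.998 and 2.27, 0.936 and 5.25, and 0 and 2.23 CPM, adjusted p = 0.0221), and its 0 UMIs at 8W have the upper bound of 5.81 CPM.

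Of 8 Wnt inhibitors tested, 2 were lower and 0 higher, and 3 were lower without cells of other types. Sfrp4, a secreted Frizzled-related protein, had 23.2 and 76.5, 20.4 and 72.1, and 44.1 and 125 CPM, lower in members of each library (−1.73 ± 0.10, adjusted p = 2.43e-05 in edgeR). Dkk3 had 79.3 and 111, 133 and 167, and 91.3 and 145 CPM (−0.49 ± 0.10, adjusted p = 0.00997). Wif1, which marks the apical cells that the study traced, had 2982 and 2719, 3317 and 4074, and 3507 and 5418 CPM and did not pass (−0.29 ± 0.17, adjusted p = 0.257). Of 12 Hedgehog genes only Gas1, a co-receptor described above, passed (−0.92 ± 0.14, adjusted p = 0.00332), and Gli1, the pathway's reporter gene, had 16.6 and 14.0, 16.9 and 17.8, and 6.30 and 7.07 CPM (0.07 ± 0.16). Gli3, a Hedgehog effector, did not pass (0.24 ± 0.11, adjusted p = 0.147) but did without cells of other types (adjusted p = 0.043). Pth1r, the receptor of PTHrP, had 55.7 and 67.8, 59.6 and 49.9, and 45.6 and 50.4 CPM (−0.05 ± 0.13).

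The lineage genes that members carried differed between the libraries. Shares below count cells with at least 2 UMIs of a gene after each cell was thinned to 3000 UMIs, and the share in cells with at least 2 Ptprc UMIs, 663 cells at P15, 194 at P25 and 15 at 8W, stands for background. A share of 0 in 15 cells allows up to 21.8% (exact 95% interval). Pcp4 was carried by 40.4% of members at P15, 15.4% at P25 and 6.25% at 8W, against 31.4%, 20.03% and 28.1% of non-cycling cells, and by 4.37%, 1.55% and 0% of the Ptprc cells. Ibsp was carried by 10.2%, 32.7% and 71.9% of members, against 25.4%, 36.8% and 42.0% of non-cycling cells and 7.09%, 10.8% and 6.67% of the Ptprc cells. The Ibsp share of P15 members was close to that of the Ptprc cells (7.20 to 14.0 against 5.25 to 9.32 as intervals) and is read as background.

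Nts was carried by 4.82% of members at P15, 22.6% at P25 and 56.2% at 8W, against 3.25%, 17.3% and 23.9% of non-cycling cells and 0.452%, 1.55% and 0% of the Ptprc cells. Ogn went the other way in members, with 17.5%, 7.21% and 3.12% against 28.8%, 30.6% and 38.6% of non-cycling cells and 5.58%, 1.55% and 0% of the Ptprc cells. Wif1 stayed frequent in both classes, with 78.6%, 78.8% and 87.5% of members and 75.4%, 86.4% and 87.7% of non-cycling cells, and 14.8%, 17.0% and 6.67% of the Ptprc cells. The 8W values rest on 32 members, and 1 library stands for each age.

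**Figure D4:**
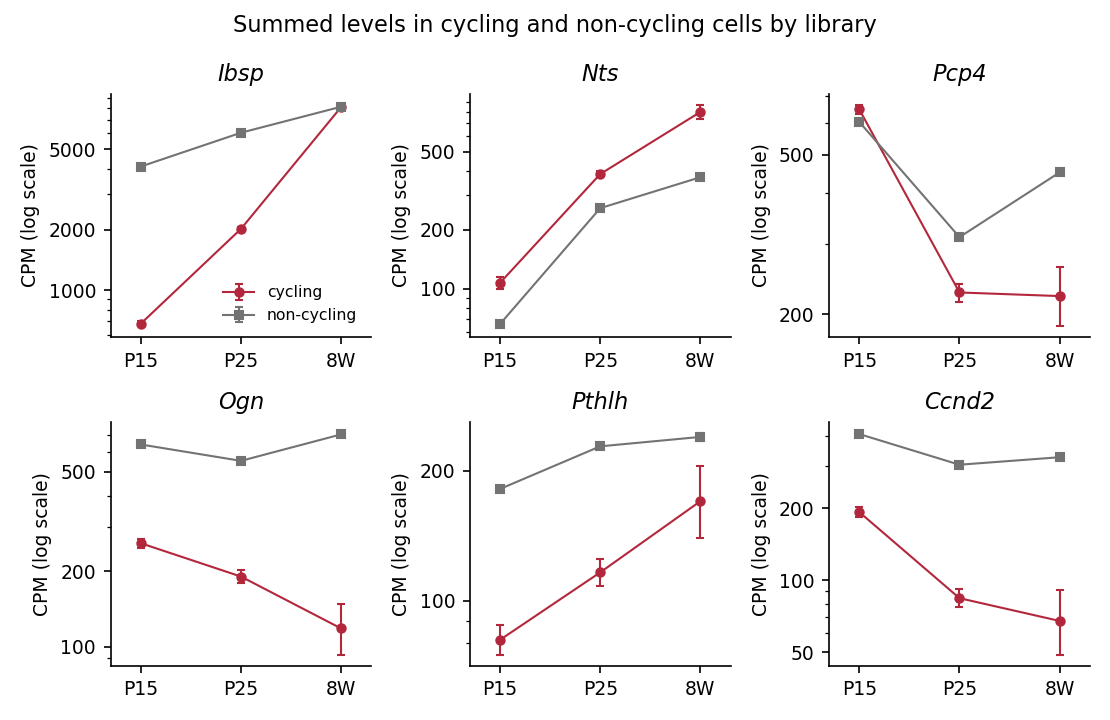
Summed levels (CPM, log scale) of 6 genes in cycling cells (red circles) and non-cycling cells (grey squares) of each library, with exact 95% Poisson intervals as bars, which cover counting error only. Ibsp in cycling cells is at 682, 2015 and 8105 CPM and level with non-cycling cells at 8W, Nts stays above them, and Ogn and Ccnd2 stay below.

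Pairs of genes were also counted within cells. Nearly all Pcp4 carriers among members also carried Wif1, so that pair follows the Pcp4 share. Wif1 and Pcp4 were carried together by 124 of 332 members at P15 (37.3%, against 28.0% of non-cycling cells), 30 of 208 at P25 (14.4%, against 19.7%) and 2 of 32 at 8W (6.25%, against 27.9%). Ibsp and Nts were carried together by 2 members at P15 (0.602%, against 0.310%), 28 at P25 (13.5%, against 13.6%) and 15 at 8W (46.9%, 95% interval from 29.1, against 19.8%). At 8W 23 of the 32 members carried Ibsp and 18 carried Nts, so this pair too follows the shares of its single genes. Whether it went beyond them was not tested. Pcp4 and Ibsp met in 6, 2 and 0 members of the 3 libraries. Deeper cells show more genes together, so cells of both classes were thinned to the same UMI number.

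Read the other way, the share of cycling cells among carriers of a gene differed between genes. Among all mesenchymal cells with at least 3000 UMIs, 3.90% cycled at P15, 2.98% at P25 and 0.798% at 8W. Among Pcp4 carriers 4.68% cycled at P15 (134 of 2863, 3.94 to 5.52), 2.20% at P25 and 0.177% at 8W (2 of 1128, 0.0215 to 0.639). Among Nts carriers 5.25% cycled at P15 (3.03 to 8.38), 3.89% at P25 (2.87 to 5.14) and 1.86% at 8W (18 of 968, 1.11 to 2.92). Ibsp carriers cycled in 2.70% of cells at P25 and 1.37% at 8W, and Bglap carriers in 2.03% and 0.764%. At P15 their values were 1.71% and 0.852%, but Bglap, like Ibsp, was carried there by about as many members (3.61%) as Ptprc cells (4.07%), so the P15 values of both genes include background. Bglap was carried by 11.5% of members at P25 and 31.2% at 8W, against 2.58% and 13.3% of the Ptprc cells, with overlapping intervals at 8W. Pthlh was carried by 5.72%, 8.17% and 18.8% of members, against 0.754%, 2.58% and 0% of the Ptprc cells. Ogn carriers were lowest among these genes at P25 and 8W, with 2.37%, 0.703% and 0.0649% (1 of 1540), and Pthlh carriers had 1.81%, 1.53% and 0.876%. Ogn carriers thus lay below all mesenchymal cells in each library with no overlap of the intervals, whereas the Nts interval overlapped that of all cells in each library. Without cells of other types the Nts interval at 8W (1.11 to 2.93) lay above that of all cells (0.508 to 1.07), and those at P15 and P25 still overlapped. All cells include the carriers, and the call of cycling was read before thinning. With cycling called by at least 1 UMI of Mki67 and of Top2a after thinning, the 8W intervals overlapped. They were 0.643 to 2.16 for Nts carriers and 0.307 to 0.774 for all cells.

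**Figure D5:**
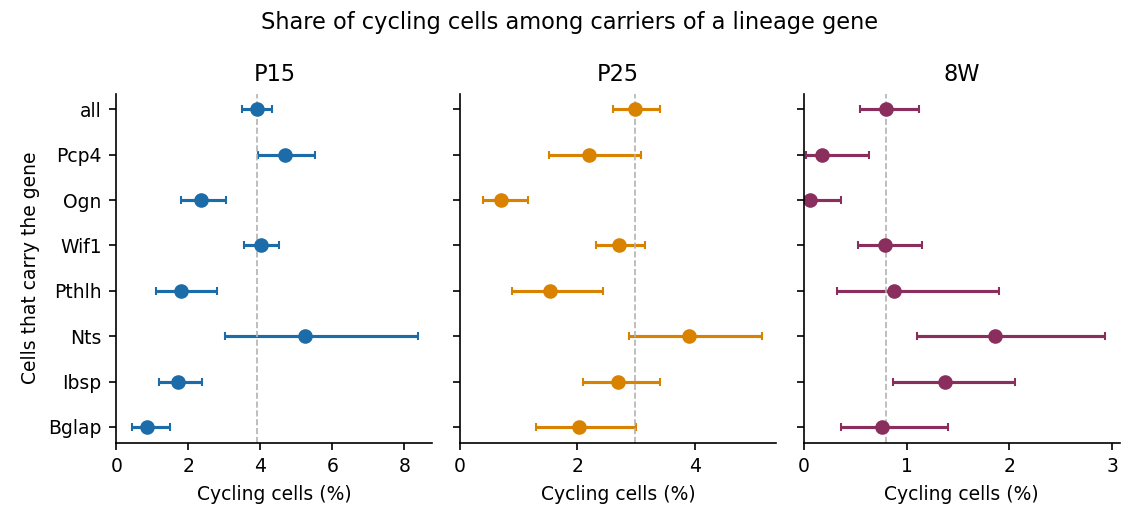
Percent of cells that cycled (horizontal axis) among the carriers of 7 lineage genes and among all mesenchymal cells, 1 panel per library, with exact 95% binomial intervals as bars and the share of all cells as a dashed line. Ogn carriers lie below the line in each library, and Pcp4 carriers are at 4.68% at P15 and 0.177% at 8W; Ibsp and Bglap carriers at P15 include background.

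Outside the cell cycle lists, the 10 genes furthest up in members included 6 histone genes of the replication type. Hist1h2ap had 4829 (members) and 14.8 CPM (non-cycling) in the P15 library, 3169 and 9.89 in P25, and 1820 and 3.57 in 8W. Esco2, an acetyltransferase that ties sister chromatids together in S phase, had 130 and 0.428, 141 and 0.220, and 187 and 0.129 CPM. Depdc1a, Fam64a and the histone genes Hist1h3b, Hist1h2af, Hist1h1b, Hist1h3c and Hist1h2an were the others of these 10, apart from Hemgn. The histone copies are near identical, so reads may be split among them. They follow from the rule and carry no test. Hemgn, a nuclear protein of blood precursors, was 111.6 against 0.341 CPM at P15, on the scale corrected by TMM factors, and was not among the genes tested once cells of other types were left out.

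Among the 10 genes furthest down by the same choice, Clec3b, or tetranectin, had 0.624 and 12.5 CPM in P15, 0.312 and 25.7 in P25, and 3.15 and 140 in 8W, from 5, 2 and 2 UMIs in members. Pi16, a marker of fibroblasts around vessels, had 0.374 and 4.47, 1.25 and 25.4, and 1.57 and 130 CPM. Mfap5, a microfibril protein, had 1.75 and 28.2, 4.53 and 62.0, and 0 and 141 CPM, where 0 UMIs at 8W have the upper bound of 5.81 CPM. For all 3, members held at most 4.53 CPM in every library, and the genes reached the level of 50 CPM only in non-cycling cells. These 10 genes were picked for passing the test, so their values are a description. Igfbp6, an inhibitor of IGF2, had 6.86 and 24.6, 47.8 and 177, and 59.8 and 360 CPM (−2.08 ± 0.16). The chemokine Cxcl5 had 1.75 and 15.01, 33.7 and 124, and 18.9 and 87.6 CPM (−2.22 ± 0.20). Tcp11l2, Dio2 and Abi3bp were also among the 10, with Spp1 and the precursor 0 gene Ogn given above. Abi3bp lost its call in 5 other fits, with an adjusted p between 0.0544 (total counts only) and 0.547 (without P25).

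Stress genes and possible doublets were also compared between the classes. Of 10 genes that dissociation can induce, 3 were lower in members (30%, against 13.1% of all genes tested) and 0 higher (against 15.5%). Jun had 1533 and 2136, 2142 and 2508, and 1837 and 3137 CPM (−0.51 ± 0.12, adjusted p = 0.0187 in edgeR), and Fos 3423 and 4313, 3526 and 4210, and 3195 and 6595 CPM (−0.57 ± 0.19, adjusted p = 0.0885). Possible doublets were 5.69%, 15.6% and 6.06% of members and 3.56%, 4.47% and 6.16% of non-cycling cells at P15, P25 and 8W. Without possible doublets 6 lineage genes were higher and 64 lower (3875 of 13149 genes passed in that fit, against 3798 of 13261), 0 of the 63 named genes lost their call, and Dmp1 (adjusted p = 0.026), Alx1 (0.0233) and Ptn (0.0309) passed. The shares of cycling cells were then 3.69%, 2.64% and 0.751%.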

How the data were processed

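Pthrp-mCherry+ cells were profiled with the 10x Chromium 3′ v3.1 kit. The authors deposited UMI counts per gene and cell, whole numbers without normalization, made with Cell Ranger 6.1.2 on mm10 per the labels. The header of the P25 matrix names Cell Ranger 6.0.1, and that matrix has 32293 features against 22056 in the others, so genes were joined by identifier (21446 shared). A P6 library of the study was not analysed here.

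Members and gene lists were chosen with earlier results of these data known. UMIs were summed per library and class and compared with edgeR 4.0.16 (TMM, filterByExpr, quasi-likelihood with robust estimates, the library as a block, Benjamini-Hochberg adjustment). The block is by design, since both sums of a library come from the same mice and capture. Their deviations from the class means correlated across genes at 0.590 in P15, 0.690 in P25 and 0.308 in 8W. TMM factors lay between 0.923 and 1.08. DESeq2 1.42.0 was an alternative. Only edgeR was tested on simulated data. Barcodes shared between libraries numbered 26, 16 and 13, with 0 among members. Possible doublets were the 6% of cells with the highest Scrublet scores in each library.

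Levels are CPM of summed UMIs with exact Poisson intervals, shares have Clopper-Pearson intervals at 95%, and both cover counting error only. With nothing to say that the 3 libraries repeat 1 condition, p-values measure the spread of the difference over ages.

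All genes of the lineage lists could be named, with those called or at 50 CPM or more put forward. Outside the cell cycle lists the 10 largest changes in each direction were named, among genes past both thresholds, alike in direction in every library and at 50 CPM or more in the higher class, which could include lineage genes. Cyclins, Cdks and their inhibitors were also named. Removal of cells of other types was chosen after seeing the data. The values of 1 gene of the lineage lists are not reported here, though the counts include it. Gene positions are from GENCODE vM21 and promoters from RefSeq.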

Additional observations from a re-analysis of the deposited data

Results flagged for a closer look

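For 9 lineage genes the ratio of cycling to non-cycling cells lay on opposite sides of 0 between libraries, with intervals apart from 0 on both sides and a span of at least 1 on the log2 scale. With 1 library at each time point these differences were not tested. Of 123 lineage genes at 50 CPM or more, 22 had intervals on opposite sides of 0, 9 of them with that span.

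The ratios follow at P15, P25 and 8W on the log2 scale. Pcp4 had 0.10, −0.46 and −1.02, and 4 other genes of the precursor lists with that span went the same way, with Crabp1 at 0.38, −0.0068 and −1.47, Hmgn3 at 0.41, 0.0495 and −0.65, Fbln1 at 0.22, −0.26 and −1.25, and Sfrp1 at 0.10, −0.14 and −1.58. The median over precursor 1 was 0.29, −0.14 and −0.65, and over precursor 0 −0.22, −0.42 and −1.57, whereas precursor 3 had −0.81, −0.17 and −0.15. Ptn of precursor 1 differed from its list with 0.40, −0.02 and 0.70. Bmp3, a bone morphogenetic protein, had −1.55, −0.70 and 0.30, and the matrix protein Sparcl1 had −1.79, −0.76 and 0.20, both from the list of Cementoblast α. Bglap had 0.20, −1.58 and −2.09, where 1 member held 93.7% of its UMIs at P15. Rgs5, a mural gene, had −1.74, 1.09 and −1.80, where 1 member held 177 of 197 UMIs at P25 (89.8%).

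Cells with an Epcam UMI lay outside the rule. At least 2 UMIs of both Mki67 and Top2a were held by 6.90% of them at P15 (76 of 1102), 32.8% at P25 (259 of 789) and 14.4% at 8W (14 of 97), above the mesenchymal share of each library.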

How the results depend on the processing

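Limits: 1 library stands for each age, 33 cells for 8W, and the rule needs depth. No named value reversed, and of 63 named genes 16 kept their call in all 18 other fits. Lineage counts here are by adjusted p alone. With no replicate block, 834 genes were higher and 178 lower past both thresholds. By adjusted p alone 1454 of 13261 genes passed in that fit, with 0 lineage genes higher and 8 lower. A fit with no block leaves the differences between ages in the spread. Lineage genes higher numbered 5 with non-cycling cells matched in depth, and 6 each with a stricter mesenchymal gate, without possible doublets and without cells of other types. Lineage genes lower numbered 75 in sums thinned to 3000 UMIs, where calls over all genes fell from 3798 of 13261 to 2523 of 11945, and 64 without possible doublets (3875 of 13149). Leaving out each library gave 817 to 1014 genes higher and 331 to 568 lower past both thresholds. By adjusted p alone it gave 3 to 7 lineage genes higher (7 without P15) and 30 to 60 lower. Of all genes, 3449 of 13213 passed by adjusted p alone without P15, 1890 of 13449 without P25 and 3875 of 14330 without 8W. Of 105 calls lost over all named genes and fits, 37 were lost with no replicate block, and 27 were gained.

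The P15 share was 5.49% with at least 1 UMI of each gene, 2.95% with at least 3, 2.996% under the stricter gate, 3.36% over all deposited cells, 1.20% at 3000 UMIs and 1.76% at 5000. The P25 share was 3.71%, 2.51%, 0.947% and 1.58% with at least 1 UMI, the stricter gate, 3000 UMIs and 5000 UMIs, and the 8W share was 0.349% at 3000 UMIs. Without cells of other types the levels of members in CPM were, for Pcp4, 708 at P15 and 252 at P25, for Ogn 287 and 203, for Nts 120.3 and 425, for Bglap 1493 and 1204, and for Ibsp 709, 2181 and 8550 at P15, P25 and 8W. The causes were not tested.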
